A study of Arabidopsis thaliana with 12 samples.

Results

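Ectopic expression of HIN1 in unstressed Arabidopsis thaliana seedlings was examined in 6 of the 12 RNA-seq libraries of the study, 3 of the stable transgenic line 35S:HIN1 (made with the vector pEG100) and 3 of wild type Col-0 (WT). The 6 libraries were taken by their genotype and treatment labels, and all 33602 genes of the count tables were considered, of which 22924 had enough reads to be tested. Both groups were whole seedlings on Murashige-Skoog agar of reduced strength without sugar in continuous light, moved on day 7 to fresh medium at a water potential of -0.25 MPa (control) and harvested 96 h later. The remaining 6 libraries are the same genotypes on medium with polyethylene glycol at -0.7 MPa for the same time (stress), and share the estimate of spread with the control libraries in the fit. The 3 libraries of a group stem from 3 experiments, each with its own RNA extraction. Only 1 transgenic line was sequenced, and the WT libraries also serve another study. The p-values rest on the spread between libraries of a group, pooled over all 12 libraries. They do not cover differences between transgenic lines. Because whole seedlings were used, fewer cells of a type and less RNA per cell cannot be told apart.

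HIN1 (HAI1-INTERACTOR 1, AT3G11290) encodes a plant protein with a Myb/SANT-like domain that is known as a partner of HAI1, a clade A protein phosphatase 2C, and of SR splicing factors in the nucleus. Clade A phosphatases restrain the signaling of the stress hormone abscisic acid (ABA). The 35S promoter of cauliflower mosaic virus is active in most tissues, so that the transgene adds HIN1 transcript in cells that do not necessarily express the native gene. Much of the result below concerns immunity to pathogens. In that system salicylic acid (SA) and N-hydroxypipecolic acid are small molecules that raise resistance in infected and distant leaves, receptors at the cell surface sense microbial and wall fragments, and WRKY transcription factors bind a short promoter element called the W-box.

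The control libraries held 60.9 M to 66.9 M gene reads each. Levels are given in CPM, reads scaled to the same total in every library, and 1 CPM stood for 60.9 to 66.9 reads. Pairwise correlations of log2 CPM were 0.9837 to 0.9865 among the WT and 0.9874 to 0.9883 among the HIN1 libraries. On the first principal component of the 6 libraries (44.9% of variance) the HIN1 libraries scored 39.3, 26.5 and 33.4, and the WT libraries -52.2, -29.5 and -17.5. WT library 3 was thus the nearest to the HIN1 group. WT library 1 stood apart in rapidly induced stress genes: WRKY40 was at 133 CPM in it against 4.39 and 24.7 CPM in WT libraries 2 and 3, and WRKY33 at 236 against 32.8 and 78.2 CPM.

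The targeted transcript was present at 24.5, 22.7 and 21.6 CPM in the WT libraries and at 250, 297 and 260 CPM in the HIN1 libraries. All 3 HIN1 libraries lay far above all 3 WT libraries, an 11.7-fold difference (log2 fold change 3.55 ± 0.097 SE, adjusted p = 5.07e-09, edgeR quasi-likelihood test with Benjamini-Hochberg adjustment, as for every adjusted p below). HIN1 lies on chr3:3535561-3537904 of TAIR10.1. The neighbouring gene AT3G11280 did not pass (log2 fold change -0.14 ± 0.066, adjusted p = 0.292), and no reads were listed in any control library for AT3G11310, a nearby gene with the same annotated product as HIN1. None of the HIN1 reads were shared with another site, and reads of the transgene and of the native gene were counted together. The authors' deposited table gives a log2 fold change of 3.3 for HIN1 in this comparison.

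In total 633 genes differed between HIN1 and WT seedlings at control, which is 2.76% of those tested. Of these, 501 (2.19% of the genes tested) were higher in HIN1 and 132 (0.576%) were lower, so that 79.1% of the differences were increases. With only the 6 control libraries in the fit 300 genes passed (271 higher, 29 lower), and with DESeq2, another count test, 1542 passed (951 higher, 591 lower). The increases were also the larger ones: 308 genes were at least 2-fold higher and 20 at least 2-fold lower, 126 were at least 4-fold higher and 2 at least 4-fold lower. The median log2 fold change was 1.21 among the higher genes and -0.48 among the lower ones, beside -0.02 over all genes tested. In all 633 the 2 groups of libraries did not overlap, as in 21.2% of all genes tested. That share did not lean to increases: 10.2% of all genes tested were higher in HIN1 without overlap and 11.0% lower. An unadjusted p under 0.05 was found for 4351 of the 22924 genes tested, and counts of such p-values in gene lists below are to be read against this share. Many of the higher genes were nearly silent in WT, where 166 had a mean under 1 CPM. Of the 633 genes, 590 are also called in the authors' deposited table, which is 93.2% of these calls and 54.1% of the 1090 calls in that table.

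These counts depended on single WT libraries. Without WT library 1 there were 319 higher and 29 lower genes, and without WT library 3 there were 1361 higher and 927 lower genes. WT library 3 was the WT library nearest to the HIN1 group in 237 of the 501 higher and 76 of the 132 lower genes, and WT library 1 held the highest level in 81 of the 132 lower genes. Omission of HIN1 library 1 left 326 higher and 44 lower genes, omission of HIN1 library 2 left 323 and 45, and omission of HIN1 library 3 left 366 and 72. No called gene changed sign in any of these fits.

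**Figure D1:**
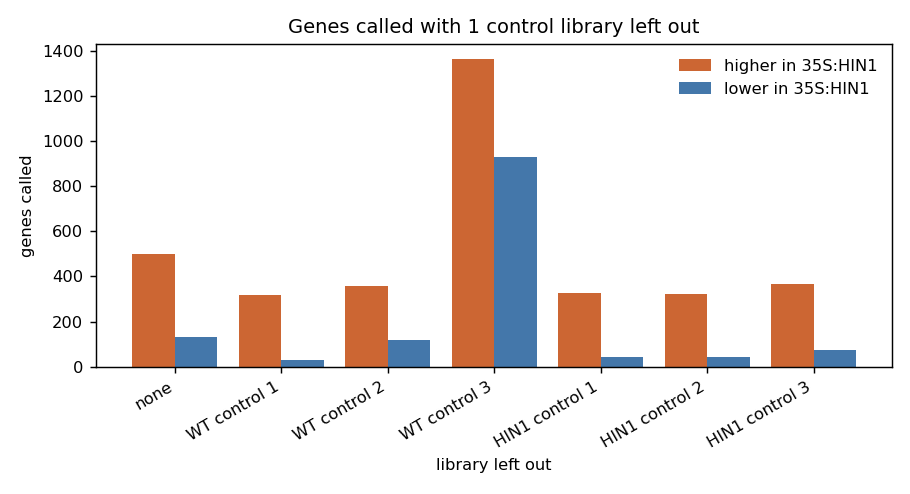
Number of genes called higher (orange) or lower (blue) in 35S:HIN1 than in WT at control, with all 12 libraries in the fit or with 1 control library left out. The bars range from 319 to 1361 for higher and from 29 to 927 for lower genes, and the tallest pair belongs to the fit without WT control 3.

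The pathway that makes N-hydroxypipecolic acid held some of the greatest differences. FMO1, the monooxygenase that forms N-hydroxypipecolic acid from pipecolic acid, was at 1.67, 1.08 and 0.92 CPM in the WT libraries and at 22.3, 12.3 and 15.5 CPM in the HIN1 libraries. The groups did not overlap, and FMO1 was 13.6-fold higher in HIN1 (log2 fold change 3.76 ± 0.332, adjusted p = 9.54e-05). ALD1, the aminotransferase that begins pipecolic acid synthesis from lysine, was at 0.568, 0.758 and 0.246 CPM in WT and at 11.2, 7.59 and 9.05 CPM in HIN1. Every HIN1 library exceeded every WT library, a 17.7-fold difference (4.15 ± 0.316, adjusted p = 3.07e-05). FMO1 lies on chr1:6650476-6653195 and ALD1 on chr2:5768417-5772266 of TAIR10.1. Both kept their calls without any 1 of the 6 control libraries. The authors' deposited table gives smaller log2 fold changes, 2.32 for FMO1 and 2.32 for ALD1.

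SA metabolism was represented mainly by enzymes that modify SA. DLO1, which hydroxylates SA, was at 4.34, 4.13 and 4.4 CPM in WT and at 13.7, 15.2 and 16.4 CPM in HIN1. The 3 libraries of each group lay close together, and DLO1 was 3.51-fold higher in HIN1 (log2 fold change 1.81 ± 0.107, adjusted p = 4.37e-06). DMR6, a second SA hydroxylase, rose 2.11-fold (adjusted p = 2.41e-05), and UGT76B1, which joins glucose to SA and to N-hydroxypipecolic acid, rose by 1.11 ± 0.169 on the log2 scale (adjusted p = 0.00392). ICS1, the chloroplast enzyme that begins the main route of SA synthesis, was at 14.3, 14.6 and 13.5 CPM in WT and at 23.4, 20.7 and 17.1 CPM in HIN1. Its groups did not overlap, but the difference was small (0.53 ± 0.101, adjusted p = 0.0158) and its call was lost without HIN1 library 1 or HIN1 library 2 (highest adjusted p = 0.0607). AT5G52810 also passed (0.56 ± 0.108, adjusted p = 0.0162), with its call lost without WT library 1, HIN1 library 1 or HIN1 library 2 (highest adjusted p = 0.068). SARD1 and CBP60g, the transcription factors that activate ICS1, did not pass: SARD1 was at 4.74, 1.67 and 1.74 CPM in WT and 7.84, 7.98 and 9.07 CPM in HIN1 (adjusted p = 0.0791), and CBP60G at 28.2, 7.65 and 9.79 against 10.7, 12.4 and 10.2 CPM (adjusted p = 0.571). Of the 12 SA and pipecolic acid genes, 7 rose and 0 fell, with a median log2 fold change of 0.82. At stress, 7 rose as well, with a median of 0.91.

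**Figure D2:**
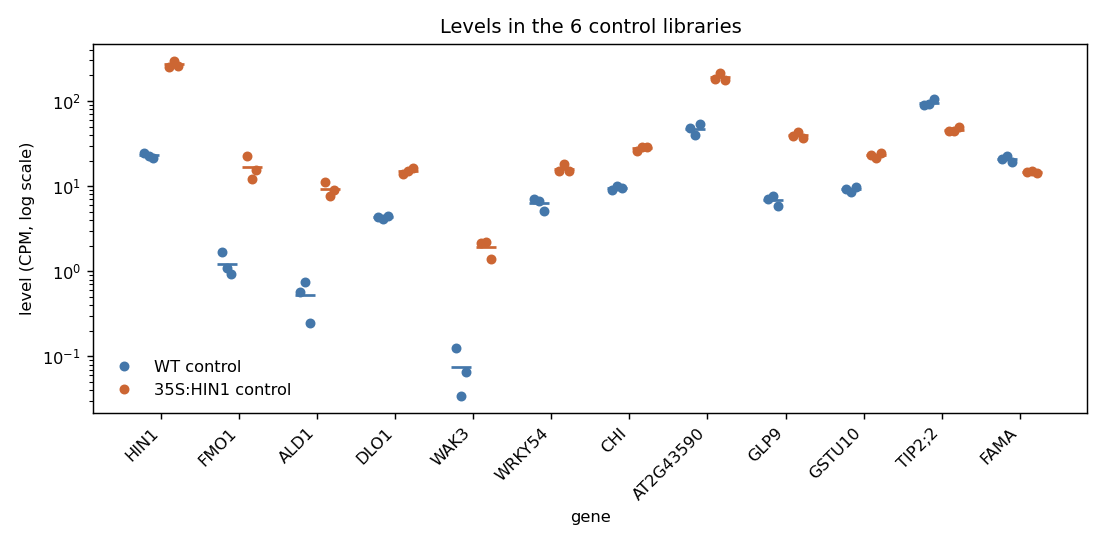
Level of 12 genes in each of the 6 control libraries, in CPM on a log axis; each point is 1 library and the short line is the mean of the 3. For HIN1, the defense genes and the transporters shown, no HIN1 point overlaps a WT point, with FMO1 and ALD1 more than 10-fold higher and TIP2;2 and FAMA lower in 35S:HIN1.

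Known outputs of SA signaling were not all called with these genes. ACD6, an ankyrin membrane protein that amplifies SA signaling, was at 29.1, 60.0 and 39.3 CPM in WT and at 130, 193 and 145 CPM in HIN1. It was 3.65-fold higher with no overlap (log2 fold change 1.87 ± 0.277, adjusted p = 0.00328). NIMIN2, which binds the SA receptor NPR1, passed at 1.22 ± 0.219 (adjusted p = 0.0113; 0.0539 without HIN1 library 2). PNP-A, a small secreted peptide, passed from very low levels (0.11, 0.0517 and 0.0986 CPM in WT against 0.522, 1.72 and 0.487 CPM in HIN1), and its call was lost without WT library 1, WT library 2, HIN1 library 1 or HIN1 library 2 (highest adjusted p = 0.127). PR1, the most used marker of SA responses, was listed at 0 CPM in the 3 WT libraries and at 0.111, 1.23 and 0.185 CPM in the HIN1 libraries, and did not pass (adjusted p = 0.113). PR2, a glucanase, was at 0.189, 0.31 and 0.279 CPM in WT and 1.42, 1.91 and 1.93 CPM in HIN1. Its groups did not overlap, but the 6.74-fold difference did not pass (log2 fold change 2.75 ± 0.857, adjusted p = 0.117). PR5 was at 4.26 to 7.42 CPM in WT and 4.47 to 6.70 CPM in HIN1 (adjusted p = 0.975). EDS1, PAD4 and NPR1, central regulators of this branch, had log2 fold changes of 0.09, 0.23 and 0.08, with adjusted p = 0.621, 0.507 and 0.634. Of the 18 EDS1, NPR1 and PR genes 3 rose and 0 fell (median 0.23), a count that was 1 without HIN1 library 2 and lay between 1 and 4 when any 1 control library was left out, and that was 6 with DESeq2. PR1, PR2 and PR5 were named after their values were seen.

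Among the 25 listed defense WRKY factors 4 rose and 0 fell, with a median log2 fold change of 0.10. The list does not cover all WRKY genes. Called genes outside it include WRKY49, which was lower (-1.3 ± 0.235, adjusted p = 0.0117). WRKY59 (3.94 ± 0.66, adjusted p = 0.00713) and WRKY58 (1.84 ± 0.269, adjusted p = 0.00307), also outside it, were higher. WRKY54 was at 7.07, 6.75 and 5.06 CPM in WT and at 15.1, 18 and 15.2 CPM in HIN1, a 2.56-fold increase with no overlap (1.36 ± 0.136, adjusted p = 0.000221). WRKY51 rose from 1.8, 1.15 and 1.23 CPM to 5.99, 5.37 and 5.57 CPM (4.03-fold, adjusted p = 0.000275). The remaining 2 called factors, WRKY62 and WRKY31, lost their calls when any 1 control library but WT library 3 was left out, with highest adjusted p = 0.166 and 0.163. WRKY70, the closest relative of WRKY54, was at 87.3, 27.7 and 33.2 CPM in WT and at 32.7, 61.7 and 36.7 CPM in HIN1, where the groups overlapped (adjusted p = 0.872; named after its values were seen). Leaving out WT library 1, in which WRKY33 and WRKY40 were highest, changed the count of factors that rose to 2 and the median to 0.27, and the count was also 2 without WT library 2, HIN1 library 2 or HIN1 library 3. With only the 6 control libraries 2 rose, and with DESeq2 9 rose and 1 fell.

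Chitinases, which cleave the chitin of fungal walls, changed most uniformly. Of 14 chitinases and related proteins 9 rose and 0 fell (median log2 fold change 1.14), and the count was 9 in each of the 6 fits that left out 1 control library. With only the 6 control libraries 7 rose, and with DESeq2 10 rose. CHI (AT2G43570) was at 9, 10.2 and 9.42 CPM in WT and at 25.8, 28.7 and 29.2 CPM in HIN1. The tight groups gave a 2.93-fold difference (1.55 ± 0.084, adjusted p = 3.92e-06). Its tandem neighbour AT2G43590 went from 48.9, 39.9 and 53.6 CPM in WT to 182, 214 and 176 CPM in HIN1, without overlap (4.02-fold, adjusted p = 0.000113). AT2G43580, which lies between them, rose by 2.45 ± 0.391 from 0.0657 to 0.224 CPM in WT. CHIC (1.43 ± 0.138), AT2G43610 (1.62 ± 0.194), CHIA (1.2 ± 0.17), AT4G01700 (1.13 ± 0.119), AT1G02360 (0.98 ± 0.164) and CHIB (0.78 ± 0.094) rose too, with adjusted p from 0.00018 to 0.00687. AT4G01700 overlaps another gene over 22.6% of its span, and the sources used here do not say whether reads were assigned by strand. The chitinase-like proteins CTL1 and CTL2, which act in the making of the plant's own cell wall, did not pass, at -0.12 ± 0.072 (adjusted p = 0.374) and 0.16 ± 0.122 (adjusted p = 0.521). At stress, 7 of the 14 rose, with a median of 0.66.

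Receptors at the cell surface included some that were almost off in WT. WAK3, a wall-associated kinase of the kind that binds pectin fragments, was at 0.126, 0.0344 and 0.0657 CPM in WT and at 2.13, 2.23 and 1.41 CPM in HIN1. The groups were far apart (log2 fold change 4.62 ± 0.398, adjusted p = 8.52e-05). Its tandem neighbour WAK1 (1.22 ± 0.229, adjusted p = 0.0142) and WAKL4 (1.33 ± 0.243, adjusted p = 0.0124) rose, but lost their calls without WT library 1 or HIN1 library 2, with highest adjusted p = 0.0607 and 0.0533. WAKL10 (1.74 ± 0.352) lost its call without WT library 2 or any 1 HIN1 library (highest adjusted p = 0.0707). In all 4 of 14 wall-associated kinases rose and 0 fell (median 0.41), with 1 higher without HIN1 library 2 and 2 without WT library 1. Of 37 cysteine-rich receptor-like kinases tested 6 rose and 0 fell (median 0.33), and the number that rose was 2 without HIN1 library 2 and 3 without WT library 2 or HIN1 library 3. CRK7 went from 0.0631, 0.0344 and 0.0329 CPM in WT to 0.759, 1.31 and 0.772 CPM in HIN1 (adjusted p = 0.00302), and CRK25 from 20.8, 19 and 24.5 to 32.4, 36.7 and 33.6 CPM (adjusted p = 0.00337). Neither lost its call without a control library. LYK4, a co-receptor for chitin, was at 8.70, 9.37 and 9.25 CPM in WT and 13.2, 16.9 and 14.9 CPM in HIN1 (1.65-fold, adjusted p = 0.00467). It was 1 of 2 called members among the 22 pattern receptors and early immune genes, the other being YLS9, a membrane protein induced during defense and senescence (4.77-fold, adjusted p = 0.000106).

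Detoxification and specialised metabolism formed another group. Of 32 tau and phi glutathione transferases, which attach glutathione to toxic compounds, 9 rose and 1 fell (median 0.29). GSTU10 was at 9.16, 8.44 and 9.86 CPM in WT and at 23.3, 21.5 and 24.4 CPM in HIN1, without overlap (2.52-fold, adjusted p = 2.09e-05). It overlaps AT1G74580 over 22.6% of its span. GSTF7 rose from 87.4, 81.1 and 76.4 CPM to 194, 190 and 171 CPM (2.27-fold, adjusted p = 0.000353), and its tandem neighbour GSTF6, also counted with the camalexin pathway, rose from 56.0, 46.7 and 44.8 CPM to 164, 165 and 148 CPM (3.23-fold, adjusted p = 0.0079). GSTU22 and GSTU4 rose by 0.81 ± 0.088 and 1.25 ± 0.139. The member that fell, GSTU8 (-0.40 ± 0.07, adjusted p = 0.01), lost its call without HIN1 library 2 (adjusted p = 0.0539); the number that fell was 0 with only the 6 control libraries, 2 with a replicate block and 3 with DESeq2, and the number of transferases that rose was 6 without WT library 1 or HIN1 library 2. IGMT2, which methylates indole glucosinolates, was at 5.62, 4.94 and 6.84 CPM in WT and at 26.0, 27.2 and 38.4 CPM in HIN1, a 5.26-fold difference (adjusted p = 9.3e-05), and 6.77% of its reads were shared with other sites. It was the single called gene of 12 in the indole glucosinolate list. In the camalexin pathway, which makes the main antimicrobial indole of Arabidopsis, 2 of 10 rose, GSTF6 and the regulator ANAC042 (1.01 ± 0.187, adjusted p = 0.0136; 0.0515 without HIN1 library 1 and 0.0994 with only the 6 control libraries).

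Berberine bridge enzymes, a family of oxidases of specialised metabolism, had 5 of 16 members higher and 0 lower (median 0.11), with 3 higher without WT library 1 or HIN1 library 2 and 2 higher with only the 6 control libraries. The tandem genes AT1G26410 and AT1G26420 led them. AT1G26410 was at 3.38, 2.63 and 1.69 CPM in WT and at 10.7, 12 and 12.7 CPM in HIN1 (4.58-fold, adjusted p = 0.00145), and AT1G26420 at 3.27, 2.89 and 2.38 against 7.94, 7.28 and 7.3 CPM (2.63-fold, adjusted p = 6.58e-05). Their neighbour AT1G26390 rose by 1.3 ± 0.245 (adjusted p = 0.015; 0.0615 without HIN1 library 2).

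**Figure D3:**
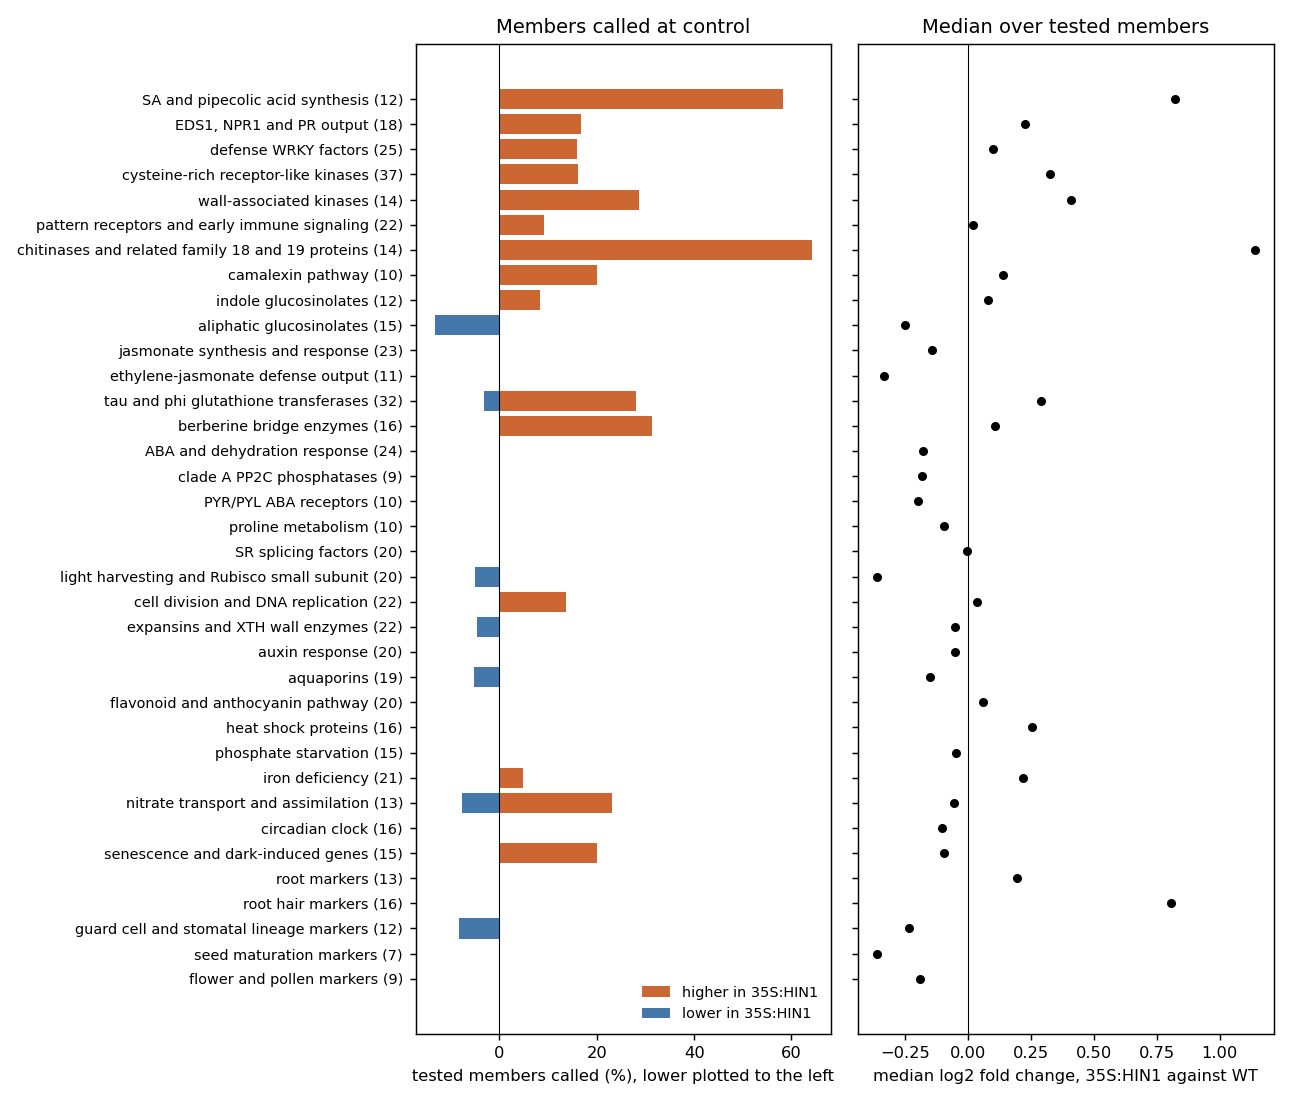
For each gene list, the percent of its tested members (their number in brackets) called higher (orange, to the right) or lower (blue, to the left) in 35S:HIN1 at control, and the median log2 fold change over the tested members. Chitinases (9 of 14) and SA and pipecolic acid synthesis (7 of 12) have the longest bars and the highest medians, at 1.14 and 0.82, while ABA, phosphatase and splicing factor lists have no bar.

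The genes with the largest folds and a mean level of 5 CPM or more, after HIN1 and FMO1, included 2 cupins and proteins of several unrelated families, besides IGMT2 and AT1G26410 described above. AT5G38910, an RmlC-like cupin, was at 6.24, 4.60 and 3.76 CPM in WT and at 47.1, 34.5 and 35.7 CPM in HIN1 (8.02-fold, adjusted p = 3.92e-06), and the germin-like cupin GLP9 at 7.06, 7.59 and 5.79 against 38.7, 43.4 and 37.2 CPM (5.83-fold, adjusted p = 3.92e-06). Both had wide gaps between the groups. AT3G28510, a P-loop nucleoside triphosphate hydrolase, was 7.55-fold higher and varied more within HIN1, at 13.8, 5.59 and 9.92 CPM. AT2G44370, a C1 domain protein, was at 2.37, 2.91 and 2.38 CPM in WT and at 15.6, 16.3 and 15.1 CPM in HIN1 (6.13-fold, adjusted p = 3.92e-06), and AT2G39530, of the uncharacterized family UPF0497, at 1.61, 2.60 and 3.76 against 15.3, 16.3 and 16.4 CPM (6.02-fold, adjusted p = 0.000221). GLR2.2, a glutamate receptor-like channel protein, rose 4.46-fold (adjusted p = 0.000217), AT5G48430, an aspartyl protease family protein, 4.33-fold (adjusted p = 0.00346), and CHX17, a cation/proton exchanger of internal membranes, 4.34-fold from 9.85, 11.7 and 11.2 CPM to 42.5, 50.6 and 49.1 CPM (adjusted p = 1.04e-05). By absolute gain DOX1 led. This dioxygenase, which oxidises fatty acids in tissue under attack, went from 338, 350 and 396 CPM in WT to 617, 738 and 688 CPM in HIN1, a 1.88-fold rise without overlap (adjusted p = 0.000148). None of the genes in this paragraph lost its call without a control library.

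Some related genes that lie side by side rose together. Neighbours were defined in the order of tested genes, so that untested genes between them were passed over. Among the 499 higher genes with a position, 101 (20.2%) lay next to another higher gene in this order, beside 975 (4.3%) of all 22671 placed genes. They formed 47 runs, and 17 runs consisted of genes with one annotated product. The families in this paragraph were picked after the values had been seen. Of 10 DUF1262 genes, whose function is not established, 6 were higher, and these fell into 2 runs of neighbours on chromosome 1 (chr1:4622550-4626166 and chr1:4629203-4636805). AT1G13480 went from 1.42, 1.60 and 1.82 CPM to 7.11, 6.45 and 7.54 CPM (4.35-fold, adjusted p = 7.43e-06), and AT1G13520 from 5.04, 3.89 and 2.89 CPM to 11.5, 12.2 and 11.6 CPM (2.98-fold, adjusted p = 0.000382). The run AT5G41280, AT5G41290 and AT5G41300, annotated as receptor-like protein kinase-related, rose by 2.69 ± 0.341, 3.16 ± 0.339 and 2.78 ± 0.412, all from at most 0.551 CPM in any WT library. Within the GLR2 glutamate receptor-like genes 5 of 8 were higher, among them GLR2.3, which went from 0.0947, 0.0689 and 0.0329 CPM to 0.617, 0.764 and 0.571 CPM beside its neighbour GLR2.2. For 68 tested genes annotated with the peroxidase superfamily 15 were higher and 0 lower (10 without WT library 1, HIN1 library 1 or HIN1 library 2, and 27 without WT library 3), among them AT3G03670 (3.41 ± 0.323, adjusted p = 0.000152) and AT5G19890, 9.80-fold higher (0.726, 0.499 and 0.657 CPM in WT, 4.62, 8.36 and 5.56 CPM in HIN1, adjusted p = 9.54e-05).

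Promoters of the called genes were read from the RefSeq genome TAIR10.1 as windows of 300 bases, from 250 before to 50 after the annotated start. The W-box was searched as TTGACC or TTGACT on both strands, and at least 1 copy lay in 33.0% of the 21744 windows of tested genes, in 51.2% of the 488 windows of higher genes and in 27.6% of the 123 windows of lower genes. At least 2 copies lay in 7.86%, 18.6% and 5.69%. The G-box CACGTG, an element found in promoters of ABA-regulated genes, lay in 8.76% of all tested, 4.1% of higher and 13.8% of lower windows, and TGACG, a core bound by TGA factors, lay in 5135 of all tested, 130 of the higher and 37 of the lower windows. Median GC content was 32.0%, 30.7% and 32.3% in the same order. These shares describe letters, not binding. The windows of FMO1 and ALD1 hold none of the W-box letters, and that of DLO1 holds none but has 2 TGACG. Among the 12 called genes of highest fold with a mean of 5 CPM or more, W-box counts ranged from 0 to 2. FMO1, GLR2.2, AT3G28510, GLP9, AT5G38910 and AT5G48430 have 0, HIN1, IGMT2 and CHX17 have 1, and 3 genes have 2. Their windows are shown because they place the element beside named genes that rose. Not every marked W-box copy lies upstream. In AT2G39530 each copy lies at or after the annotated start, and in AT1G26410 the later copy lies after it. The copies in AT2G44370 lie before the annotated start. Capitals mark the W-box on either strand (GGTCAA and AGTCAA are its reverse complements) and, once in AT1G26410, TGACG. The windows lie on the minus strand of TAIR10.1 at chr1:9140390-9140689, chr2:16499475-16499774 and chr2:18323072-18323371.
AT1G26410: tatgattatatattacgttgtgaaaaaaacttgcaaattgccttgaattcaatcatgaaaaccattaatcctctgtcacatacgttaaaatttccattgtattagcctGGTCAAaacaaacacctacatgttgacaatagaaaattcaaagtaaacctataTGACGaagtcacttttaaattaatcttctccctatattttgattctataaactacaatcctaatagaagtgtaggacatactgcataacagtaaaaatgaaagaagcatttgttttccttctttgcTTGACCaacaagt
AT2G39530: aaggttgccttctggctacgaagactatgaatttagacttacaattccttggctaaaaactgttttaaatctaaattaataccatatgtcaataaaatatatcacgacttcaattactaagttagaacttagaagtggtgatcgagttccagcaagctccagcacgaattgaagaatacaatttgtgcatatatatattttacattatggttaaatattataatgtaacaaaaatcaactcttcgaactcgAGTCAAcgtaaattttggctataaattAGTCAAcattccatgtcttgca
AT2G44370: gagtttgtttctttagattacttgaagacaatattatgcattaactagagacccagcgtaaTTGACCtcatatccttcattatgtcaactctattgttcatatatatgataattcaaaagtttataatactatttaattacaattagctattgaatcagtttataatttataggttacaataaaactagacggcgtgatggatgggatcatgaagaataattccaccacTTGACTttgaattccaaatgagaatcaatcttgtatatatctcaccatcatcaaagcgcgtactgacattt

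Nitrogen and potassium transport changed in part. NRT2.1, the main high-affinity nitrate transporter of roots, was at 0.616, 1.76 and 1.51 CPM in WT and at 3.40, 6.85 and 6.83 CPM in HIN1, a 4.4-fold rise without overlap (adjusted p = 0.00713; 0.0669 with only the 6 control libraries in the fit). Its partner protein NRT3.1 rose from 12.3, 17.1 and 16.9 CPM to 24.8, 30.3 and 29.6 CPM (1.83-fold, adjusted p = 0.00278). GLN1;2, a cytosolic glutamine synthetase, passed at 0.42 ± 0.094 and NIA1, a nitrate reductase, at -0.61 ± 0.135, but the first was lost without WT library 1 or any 1 HIN1 library and the second without WT library 1, HIN1 library 2 or HIN1 library 3 (highest adjusted p = 0.111 and 0.146). Of 13 nitrate genes tested 3 rose and 1 fell (median -0.05), and with only the 6 control libraries 1 rose and 0 fell. HAK5, a potassium transporter induced by potassium shortage, was at 47.0, 42.3 and 57.7 CPM in WT and 19.7, 24.7 and 12.5 CPM in HIN1 (2.58-fold lower, adjusted p = 0.0315), and this call was lost without WT library 1, WT library 2, HIN1 library 1 or HIN1 library 3 (highest adjusted p = 0.104). Among senescence and dark-induced genes 3 of 15 rose and 0 fell (median -0.09): YLS9, the beta-glucosidase DIN2, from 7.51, 6.20 and 3.68 CPM to 15.0, 15.6 and 18 CPM (adjusted p = 0.00216), and SAG13 (1.79 ± 0.354, adjusted p = 0.0192), whose call was lost without WT library 1, HIN1 library 2 or HIN1 library 3 (highest adjusted p = 0.0717). Of 21 iron deficiency genes F6'H1, which makes precursors of coumarins, passed (0.84 ± 0.185, adjusted p = 0.0335) and lost its call without WT library 2 or any 1 HIN1 library (highest adjusted p = 0.128), and with only the 6 control libraries (0.151).

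Genes called lower by edgeR with all 12 libraries were few and mostly small in effect. DESeq2 called 591 lower, and edgeR without WT library 3 called 927 lower. TIP2;2, an aquaporin of the vacuolar membrane, was at 89.4, 91.4 and 106 CPM in WT and at 44.7, 44.1 and 48.9 CPM in HIN1. The 2.08-fold difference had no overlap (log2 fold change -1.06 ± 0.11, adjusted p = 0.000291), and TIP2;2 was the single gene called by edgeR among 19 aquaporins, of which DESeq2 called 3 lower. A second was lower without HIN1 library 3, and 1 was higher without WT library 3. FAMA, the transcription factor that completes guard cell differentiation, was at 21.0, 22.7 and 19.4 CPM in WT and at 14.5, 15.3 and 14.2 CPM in HIN1, 1.44-fold lower without overlap (adjusted p = 0.00375). AT1G65845, an uncharacterized gene, fell by 1.25 ± 0.118 (adjusted p = 0.000148), AT4G00700, a C2 domain protein, by 1.23 ± 0.143 (adjusted p = 0.000639), and JAL22, a jacalin-related lectin, from 429, 462 and 476 CPM to 288, 317 and 333 CPM (adjusted p = 0.00699). These 5 kept their calls without any 1 control library.

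The other lower genes named here rested on particular libraries. AT1G66500, a pre-mRNA cleavage complex II protein, was the lowest by fold among called genes with a mean of 5 CPM or more. It was at 22.2, 7.58 and 8.5 CPM in WT and 2.70, 4.62 and 2.38 CPM in HIN1 (-1.98 ± 0.373, adjusted p = 0.0149). Its call was lost without HIN1 library 1 or HIN1 library 3 (highest adjusted p = 0.0739) and with only the 6 control libraries (0.115). Called genes below that mean level reached a log2 fold change of -3.92. DREB26, an AP2 family transcription factor, was at 32.3, 16 and 12.8 CPM in WT and 6.56, 9.25 and 6.80 CPM in HIN1 (-1.43 ± 0.316, adjusted p = 0.0339), with the call lost without WT library 1 or any 1 HIN1 library (highest adjusted p = 0.132). SWEET10, a sugar transporter, passed at -1.37 ± 0.294 and lost its call when any 1 control library but WT library 3 was left out (highest adjusted p = 0.111). MAM1, which extends the side chain of aliphatic glucosinolates, was at 333, 299 and 320 CPM in WT and 248, 243 and 249 CPM in HIN1 (-0.36 ± 0.067, adjusted p = 0.0132), and lost its call without WT library 1, HIN1 library 2 or HIN1 library 3 (highest adjusted p = 0.0781). The regulator MYB76 (-0.66 ± 0.145, adjusted p = 0.0341) was the second of 2 lower genes among 15 of the aliphatic glucosinolate pathway, of which 14 had a negative log2 fold change (median -0.25). DESeq2 called 6 of the 15 lower, 0 passed with only the 6 control libraries, and 12 had an unadjusted p under 0.05. MYB76 lost its call when any 1 control library but WT library 3 was left out (highest adjusted p = 0.154). XTH24, a xyloglucan-modifying wall enzyme, passed at -0.53 ± 0.101 (adjusted p = 0.0162), with the call lost without WT library 1, WT library 2, HIN1 library 1 or HIN1 library 3 (highest adjusted p = 0.0758).

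The listed light harvesting and Rubisco small subunit genes had mostly negative log2 fold changes, and 1 of them passed. LHCB4.2, an antenna protein of photosystem II, was at 1946, 1682 and 1589 CPM in WT and at 1250, 954 and 1308 CPM in HIN1 (log2 fold change -0.57 ± 0.121, adjusted p = 0.0285), and its call was lost without WT library 1, WT library 2, HIN1 library 1 or HIN1 library 2 (highest adjusted p = 0.118). It was the 1 member called of 20, and 19 of the 20 had a negative log2 fold change (median -0.36). In 11 the groups did not overlap, DESeq2 called 13 lower, and an unadjusted p under 0.05 was found for 15. At stress the median was 0.10. The number called lower by edgeR was 7 without WT library 3, 1 without HIN1 library 3, and 0 without any other 1 control library or with only the 6 control libraries. LHCB2.3, a light harvesting gene outside the list, was also called lower (-0.59 ± 0.135, adjusted p = 0.0399). Its mean was 677.8 CPM in WT and 449.0 CPM in HIN1, and its call was lost with only the 6 control libraries (adjusted p = 0.128).

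Markers of organs and cell types differed between the WT libraries themselves. The summed level of 16 root hair markers was 37.6, 56.5 and 112 CPM in WT libraries 1, 2 and 3 and 121, 123 and 101 CPM in the HIN1 libraries. WT library 3 thus lay within the HIN1 range and the other WT libraries far below it. All 16 had a positive log2 fold change (median 0.81, or -0.10 at stress), but edgeR called 0, DESeq2 called 3, 9 had an unadjusted p under 0.05, and 13 were called without WT library 3. Of 13 root markers tested edgeR called 0, DESeq2 2, and 2 had an unadjusted p under 0.05 (median 0.19), with 4 called without WT library 3. Among 12 guard cell and stomatal markers edgeR called FAMA lower and DESeq2 called 2 lower, as did edgeR without WT library 3, while 11 of 12 had a negative log2 fold change (median -0.24), and their summed level was 104 to 127 CPM in WT and 92.1 to 93.9 CPM in HIN1. Seed markers summed to 1.74 to 3.53 CPM in WT and 1.09 to 2.77 CPM in HIN1, near 0 in both groups. The part of unequal organ or cell makeup in the gene differences above was not tested.

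**Figure D4:**
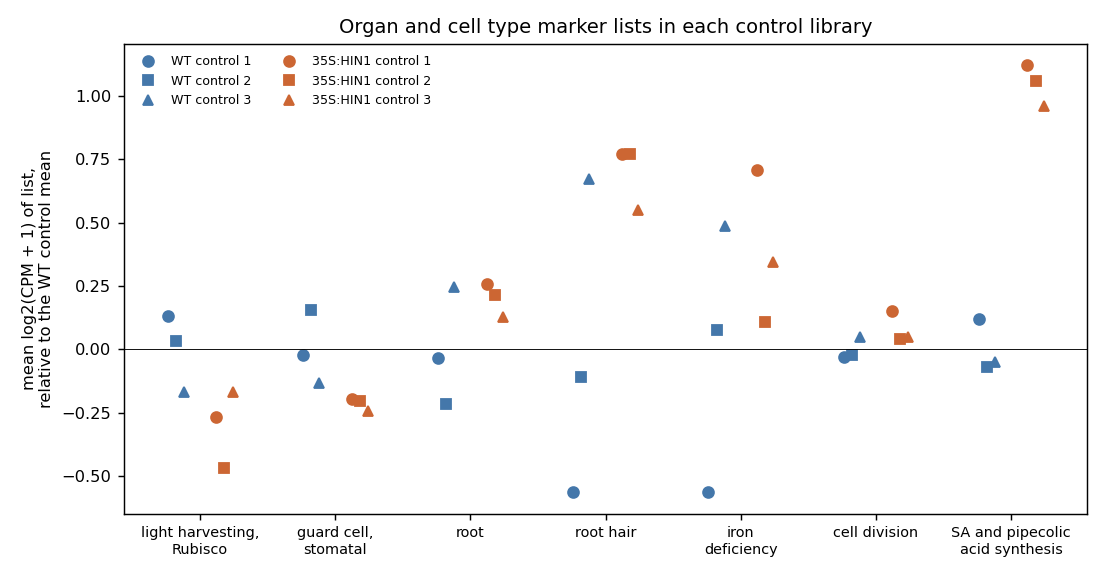
Mean log2(CPM + 1) of 7 gene lists in each control library, relative to the mean of the 3 WT control libraries; blue is WT, orange 35S:HIN1, and the shape gives the library number. WT control 3 lies among the HIN1 libraries for root hair markers and far from WT control 1, whereas for SA and pipecolic acid synthesis all 3 HIN1 libraries lie above all 3 WT libraries.

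Listed cell division and DNA replication genes passed in 3 of 22 cases, MCM2, MCM4 and MCM6 of the replicative helicase, with log2 fold changes of 0.32 ± 0.069, 0.24 ± 0.052 and 0.25 ± 0.056 (adjusted p = 0.0315, 0.031 and 0.0361). The list's median was 0.03. With DESeq2 6 rose, with a replicate block 1 and with only the 6 control libraries 0, and the 3 calls were lost when any 1 control library but WT library 3 was left out (highest adjusted p = 0.131). The list does not cover all replication genes. ORC6, outside it, was higher by 0.92 ± 0.102 (adjusted p = 0.000464), with means of 4.93 CPM in WT and 9.31 CPM in HIN1.

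Listed genes of the pathway that HIN1 is known from were not called by edgeR at control. The lists do not cover all ABA genes. NCED5 and ABO3, outside them, were called higher (adjusted p = 0.0408 and 0.00687). Their levels were low, with means of 0.1209 and 0.2245 CPM in WT and 0.3439 and 0.8179 CPM in HIN1. Of 9 clade A phosphatases tested edgeR called 0, DESeq2 0, and 0 had an unadjusted p under 0.05 (median -0.18). HAI1 itself was at 6.76, 4.60 and 6.67 CPM in WT and 6.01, 5.33 and 7.62 CPM in HIN1, with overlapping groups (adjusted p = 0.899). For 20 SR splicing factors the counts were 0, 0 and 0 and the median -0.01, and every member lay between -0.14 and 0.07. SR45, an SR-like factor, was at 37.0, 40.4 and 42.5 CPM in WT and 42.0, 40.5 and 43.7 CPM in HIN1 (0.07 ± 0.084, adjusted p = 0.683). ABA and dehydration genes had 0 of 24 called by edgeR and 1 by DESeq2, with 4 at an unadjusted p under 0.05 (median -0.18). ABA receptors had 0 of 10 called by edgeR and 1 by DESeq2 (2 unadjusted, median -0.20), and proline metabolism 0 of 10 by edgeR and 0 by DESeq2 (1 unadjusted, median -0.10). Jasmonate genes had 0 of 23 called by either tool, with 4 at an unadjusted p under 0.05 (median -0.14), and ethylene-jasmonate outputs 0 of 11 by either tool with 4 unadjusted (median -0.33). ERF104 of that list was at 228, 34.2 and 77.3 CPM in WT and 11.8, 51.2 and 16.6 CPM in HIN1, where WT library 1 was the highest and the groups overlapped (adjusted p = 0.171). Auxin response (20 tested), flavonoid (20), heat shock (16), phosphate starvation (15), clock (16), and flower and pollen genes (9) had 0 called by edgeR as well. DESeq2 called 0, 0, 1, 0, 2 and 0 of these, and 7, 0, 3, 0, 3 and 0 had an unadjusted p under 0.05. Of all 22924 genes tested, 4351 had such a p.

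The same contrast was repeated at -0.7 MPa with 6 other libraries, so that no library is shared. There 785 genes differed (3.42% of those tested), 740 higher in HIN1 (3.23%) and 45 lower (0.196%). Of the 501 genes higher at control, 488 (97.4%) had a positive log2 fold change at stress, beside 47.8% of all genes tested, and 295 (58.9%) passed in the same direction. Their median log2 fold change was 1.21 at control and 1.06 at stress. For the 132 lower genes 104 (78.8%) kept the sign, beside 52.2% of all genes, 16 (12.1%) passed in the same direction, and the median went from -0.48 to -0.13. Across all 22924 genes the log2 fold changes of the 2 contrasts gave a Pearson r of 0.522 (Spearman rho 0.205), a description over genes, which are not independent replicates. BAM5, a cytosolic beta-amylase, was the 1 called gene that passed in the opposite direction, at 0.489, 0.775 and 0.641 CPM in WT control, 1.3, 1.13 and 1.54 CPM in HIN1 control, 9.39 to 12.6 CPM in WT stress and 4.76 to 6.36 CPM in HIN1 stress. Its call at control was lost without WT library 1, HIN1 library 1 or HIN1 library 3 (highest adjusted p = 0.0733). FMO1 and ALD1 were higher by 5.88 and 5.80 on the log2 scale at stress (adjusted p = 4.28e-06 and 1.69e-05), and CHI, DLO1 and WRKY54 by 1.46, 1.8 and 1.48. For none of these genes did the difference between the control and stress contrasts pass. TIP2;2 had a log2 fold change of -0.46 at stress (adjusted p = 0.0409), and FAMA did not pass there (-0.22, adjusted p = 0.265).

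**Figure D5:**
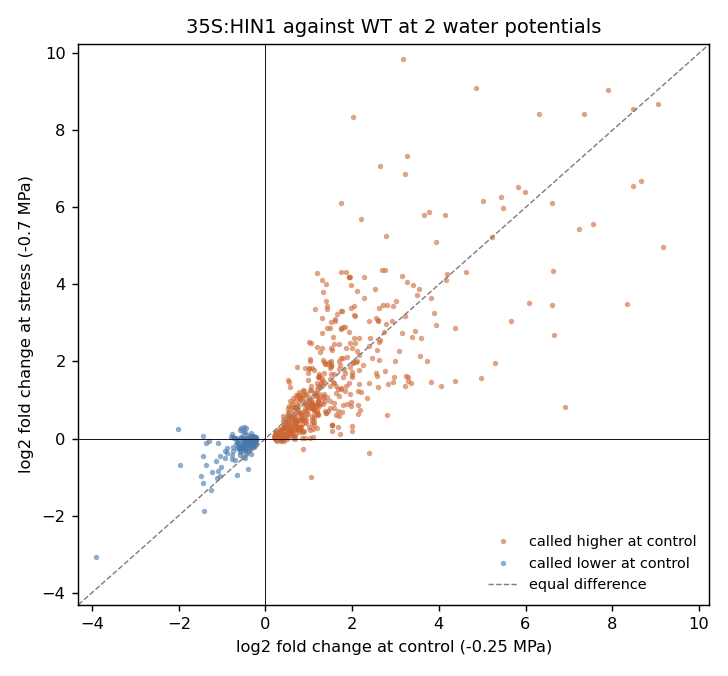
Log2 fold change of 35S:HIN1 against WT at control (x axis) and at stress (y axis) for the 633 genes called at control, 1 point per gene; the dashed line marks equal values. Orange points (called higher) lie almost all above 0 at stress with a median of 1.06, and blue points (called lower) gather near 0 with a median of -0.13.

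The difference between the 2 contrasts passed in 36 genes (0.157% of those tested), 35 (0.153%) with a larger value at stress and 1 (0.00436%), BAM5, with a smaller one. Of these 36 genes 18 were among the 501 higher genes at control and 18 were not called at control. The total lay between 12, without HIN1 control library 3, and 238, without WT control library 3.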

How the data were processed

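RNA was poly-A selected and sequenced with a stranded kit, per the labels' protocols. The authors deposited 1 table per library with an expected count of reads per gene, RPKM values and the fraction of each gene's reads that map to several sites, per the file headers. The submitters' processing notes name TAIR10, Bowtie2, DESeq2, Trimmomatic 0.35 and CASAVA with bcl2fastq 1.8.4, without their roles; for the counting step and its use of strand, the tool is not given in the sources used here. Deposited RPKM values served only to check the library totals, and the deposited fraction of shared reads (1.33% to 2.6% of reads in the control libraries) only to mark genes. The authors' deposited comparison table gives log2 fold changes with errors and adjusted p-values.

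Expected counts were rounded and fitted in R 4.3.3 with edgeR 4.0.16 (filterByExpr with a minimum count of 10, TMM, quasi-likelihood, 1 coefficient per group). All 12 libraries shared 1 estimate of spread, with 8 residual degrees of freedom and a biological coefficient of variation of 13.04%. Genes were called at an adjusted p below 0.05. Levels are CPM on the TMM-scaled library size. Standard errors are approximate, from the fold change on the log2 scale and the root of F. Counts were simulated for this comparison (22924 genes) from the WT control means, and only genes with a WT mean above 1 CPM were changed. The simulated spread depended on level alone, without gene-specific spread or deviating libraries. There 90 of 100 genes changed 2-fold and 100 of 100 changed 4-fold were recovered, with 9 unchanged genes called. These shares therefore do not give the recovery in the real libraries or for genes near 0 CPM. Counts limit precision only as counting error; the spread between libraries is larger.

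This comparison, its members and the 36 gene lists (624 genes) were chosen with earlier results of these data known; the 6 libraries follow from the labels. Named genes are HIN1, the 12 highest and 12 lowest folds of called genes whose mean is 5 CPM or more and whose groups do not overlap, the 6 largest gains and losses in CPM, and the 4 called genes of smallest adjusted p in every list, or the 2 of highest level where none was called; the text prints those it needs, with other list members and family members chosen after their values were seen. DESeq2 1.42.0 was run as an alternative. The labels do not say that a number marks a shared experiment, and deviations of same-numbered control libraries from their group means correlated at -0.11, -0.0672 and 0.0377.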

Additional observations from a re-analysis of the deposited data

Results flagged for a closer look

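In 12 named genes the difference between HIN1 and WT was not the same at the 2 water potentials by edgeR's test of that difference (stress minus control, log2). Within the tandem berberine bridge genes it was 3.497 ± 0.459 in AT1G26410, 2.83 ± 0.449 in AT1G26390 and 2.17 ± 0.17 in AT1G26420 (adjusted p = 0.0119, 0.0374 and 0.000687). AT1G26410 was at 0.114, 0.308 and 0.568 CPM in WT stress and at 15.7, 17.3 and 17.0 CPM in HIN1 stress. WAKL4, a wall-associated kinase, had 2.46 ± 0.354 (adjusted p = 0.0194), with 0.413 to 0.745 CPM in WT stress and 6.38 to 8.49 CPM in HIN1 stress. GSTF7 had 1.2 ± 0.178 (adjusted p = 0.024), with 33.7 to 45.1 CPM in WT stress and 171 to 240 CPM in HIN1 stress.

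Among family members and genes picked after their values were seen, DTX1, a MATE efflux protein, had 3.1 ± 0.266 (adjusted p = 0.000687). It was at 1.88, 1.43 and 1.56 CPM in WT control and at 3.38, 4.27 and 3.54 CPM in HIN1 control, and at 0.312 to 0.518 and 6.89 to 8.87 CPM at stress. YSL7, of the YELLOW STRIPE like family, had 2.23 ± 0.212 (adjusted p = 0.00155), the DUF1262 gene AT1G13480 1.71 ± 0.19 (adjusted p = 0.00485), and the cupin AT5G38940, which did not pass at control, 1.54 ± 0.129 (adjusted p = 0.000687). PHT3;2, a mitochondrial phosphate carrier, had 1.13 ± 0.188 (adjusted p = 0.0468) and the cytochrome P450 CYP71B23 0.93 ± 0.112 (adjusted p = 0.00788). BAM5 had -2.05 ± 0.268 (adjusted p = 0.0119), the 1 negative value of the 36 genes that passed.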

How the results depend on the processing

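The HIN1 log2 fold change lay between 3.47 and 3.62 in all settings run, and no called gene changed direction. Genes that did not pass could change sign when 1 control library was left out, such as WRKY70 (-0.51 to 0.54) and PR5 (-0.14 to 0.28). DESeq2 called 1542 genes (951 higher, 591 lower), 527 of them also called the same way at stress, and 214 in the difference between water potentials. With only the 6 control libraries in the fit, 300 genes passed (271 higher, 29 lower), 207 of them also at stress. Leaving out 1 of the 12 libraries gave 348 to 2288 calls (319 to 1361 higher, 29 to 927 lower), 245 to 415 calls shared with stress and 12 to 238 for the difference between water potentials. The highest of each range came without WT control library 3. Whether the numbers mark shared experiments is not known. Deviations over genes of same-numbered control libraries correlated at -0.11, -0.0672 and 0.0377. The chloroplast share of reads, in contrast, was highest in number 3 and lowest in number 2 in each of the 4 groups. A replicate block gave 540 calls (437 higher, 103 lower), 305 of them shared with stress, and 27 for the difference; 402 of the 501 higher and 82 of the 132 lower genes kept their calls under it. Other size factors, other count filters and removal of shared or organelle reads kept each count within 1.5 times (551 to 668 calls). Of 81 named genes called, 44 passed without each control library in turn and 37 did not, 33 lost their call with only the 6 control libraries and 14 with the block. The cause of these shifts was not tested. At 60.9 M to 66.9 M reads per library, genes near 0 CPM stay imprecise, and 166 of the higher genes had a WT mean under 1 CPM.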
